A study of Mus musculus with 12 samples.

Results

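Laminins, nidogens, perlecan and integrins were examined by messenger RNA sequencing of primary mouse embryonic fibroblasts (MEFs) that carried wild-type E2f1 or were homozygous for the 3KR allele. Members were taken by name: every protein-coding mouse gene whose symbol is Lama, Lamb or Lamc with a number, Itga or Itgb with a number and an optional letter, Nid1, Nid2 or Hspg2. This gave 35 of the 37991 genes in the files, made up of 11 laminin chains, 3 nidogen and perlecan genes, 12 integrin alpha subunits and 9 integrin beta subunits. Counts allowed a test for 33 of them, among 15327 genes tested in all.

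The E2f13KR/3KR knock-in replaces the lysines at which E2F1 is acetylated with arginine. Both genotypes were of the FVB strain, were taken from embryos of 13.5 days, and were used at passage 3 as cultures grown in low oxygen. Each was left untreated or was given neocarzinostatin (NCS), a drug that breaks both strands of DNA, at 250 ng/ml for 3 h, which gave 4 groups of 3 samples. The labels do not say whether the 3 samples of a group came from separate embryos, so that p-values measure the spread between these samples. The comparisons ask what the loss of the acetylated lysines changes before and after DNA damage, and whether the change after NCS differs between the genotypes.

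Laminins are trimers of an alpha, a beta and a gamma chain, and many, though not all, polymerise into the first layer of a basement membrane. Nidogens link that layer to the collagen IV network, and perlecan, a large heparan sulfate proteoglycan, binds both. Integrins are pairs of an alpha and a beta subunit that span the cell membrane, grip matrix proteins outside and couple to actin inside, and the alpha subunit largely sets which ligand is bound. Cultured fibroblasts are known for fibronectin and collagen receptors that share the beta subunit made from Itgb1.

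The starts of 4 integrin genes are shown because of how their RNA is described below. Itga1 and Itga2 lie side by side on the same strand, both encode collagen receptors, and had log2 fold changes between the untreated genotypes of 0.02 and -2.02. Itga5 and Itgb1 encode the subunits of the fibronectin receptor and were the most abundant alpha and beta subunits per kilobase. Each line is the stretch of 250 bases before the RefSeq start site, read on the gene's strand, in GRCm38.p6. These are chr13:115101965-115102214 (minus strand) for Itga1, chr13:114932101-114932350 (minus strand) for Itga2, chr15:103366792-103367041 (minus strand) for Itga5 and chr8:128685404-128685653 (plus strand) for Itgb1. Capitals mark the GC box letters GGGCGG or their reverse complement.
Itga1: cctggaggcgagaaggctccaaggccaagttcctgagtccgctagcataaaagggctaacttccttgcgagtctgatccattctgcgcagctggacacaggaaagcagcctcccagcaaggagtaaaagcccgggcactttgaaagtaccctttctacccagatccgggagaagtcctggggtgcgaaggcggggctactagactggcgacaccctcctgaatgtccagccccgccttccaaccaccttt
Itga2: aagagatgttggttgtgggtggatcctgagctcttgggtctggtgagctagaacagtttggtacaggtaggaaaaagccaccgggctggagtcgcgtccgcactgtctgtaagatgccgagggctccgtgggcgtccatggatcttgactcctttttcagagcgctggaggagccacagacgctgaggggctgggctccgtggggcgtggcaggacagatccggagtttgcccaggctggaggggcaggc
Itga5: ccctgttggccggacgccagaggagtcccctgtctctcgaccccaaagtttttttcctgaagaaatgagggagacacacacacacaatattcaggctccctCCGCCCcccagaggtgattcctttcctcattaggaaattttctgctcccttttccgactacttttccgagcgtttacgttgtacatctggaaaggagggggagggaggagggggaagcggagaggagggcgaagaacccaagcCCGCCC
Itgb1: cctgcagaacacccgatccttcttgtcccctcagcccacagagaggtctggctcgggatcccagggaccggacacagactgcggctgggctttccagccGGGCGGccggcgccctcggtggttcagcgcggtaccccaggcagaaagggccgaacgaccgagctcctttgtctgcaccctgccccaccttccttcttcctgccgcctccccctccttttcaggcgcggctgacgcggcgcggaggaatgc
The Itga5 stretch held the GC box on the minus strand at 149 to 144 and at 6 to 1 bases before the start, and the Itgb1 stretch held it on the plus strand at 151 to 146 bases before the start. GC content was 57.6% for Itga1, 60.8% for Itga2, 55.6% for Itga5 and 68% for Itgb1, against a median of 52.4% over 32544 such stretches. Windows of 250 bases before to 50 after the start were held for 23 of the 35 genes, in 26 windows. On either strand, GGGCGG was in 46.2% of these windows and in 35.7% of all 32851 windows, and the AP-1 letters TGANTCA were in 7.69% and in 7.81%. The E2F letters TTTCGCGC or TTTGGCGC were in 0 of the 26 windows and in 0.813% of all windows, which says only that these letters are not in these windows.

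Counted reads ran from 33203757 to 45279321 per sample. The wild-type samples numbered 3 stood apart in both treatments: their counts differed from those of the other wild-type samples by a mean chi-square of 7.11 to 8.75 a gene, while the remaining pairs within groups reached no more than 2.28. Calls that changed without them are given beside the results. Xist had 30590 to 35635 normalized counts in 3KR samples and 32.3 to 62.5 in wild-type samples, and the Y-linked Ddx3y had 7 to 16.2 and 5370 to 5822. The sex of the embryos and the E2f1 genotype therefore cannot be told apart in any genotype contrast. E2f1 itself had 1042 to 1296 normalized counts in wild-type and 1111 to 1259 in 3KR samples, and a count per gene does not read the altered codons. In bulk RNA, fewer cells of a type and less RNA per cell cannot be told apart.

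Levels were compared between genes as RPKM, which scales reads to exon length and library size, and between groups as normalized counts, which are counts divided by a size factor for each sample. In untreated wild-type MEFs Itgb1 had 631 ± 10.5 RPKM (SD, n = 3), Itga5 had 315 ± 2.3 and Nid1 had 173 ± 7.22. The collagen receptor subunit Itga11 followed with 116 ± 0.451, then Itgb5, a partner of the alpha v subunit, with 112 ± 6.52 and Hspg2 with 102 ± 6.01. The samples of Itgb5 spread across those of Itga11 and overlapped those of Hspg2, so Itgb5 was not ordered against either. All samples of Itga11 lay above those of Hspg2. The laminin chains were lower, at 52.9 ± 1.22 for Lamc1, 51.2 ± 0.69 for Lamb2 and 34.3 ± 1.65 for Lamb1, and Lama4 had 11.1 ± 0.448. These values use all exons, and the order of the chains depends on the length used. With the longest transcript they were 57.4 ± 1.32 for Lamc1, 55.3 ± 0.745 for Lamb2, 58.9 ± 2.82 for Lamb1 and 22.1 ± 0.894 for Lama4. At the other end, Itgb2l had 0 counts in all 12 samples, which allows up to 0.0663 to 0.0904 CPM, and Itgb6, an epithelial partner of alpha v, had at most 6 counts in any sample. Itgb6 and Itgb2l were the members not tested.

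**Figure D1:**
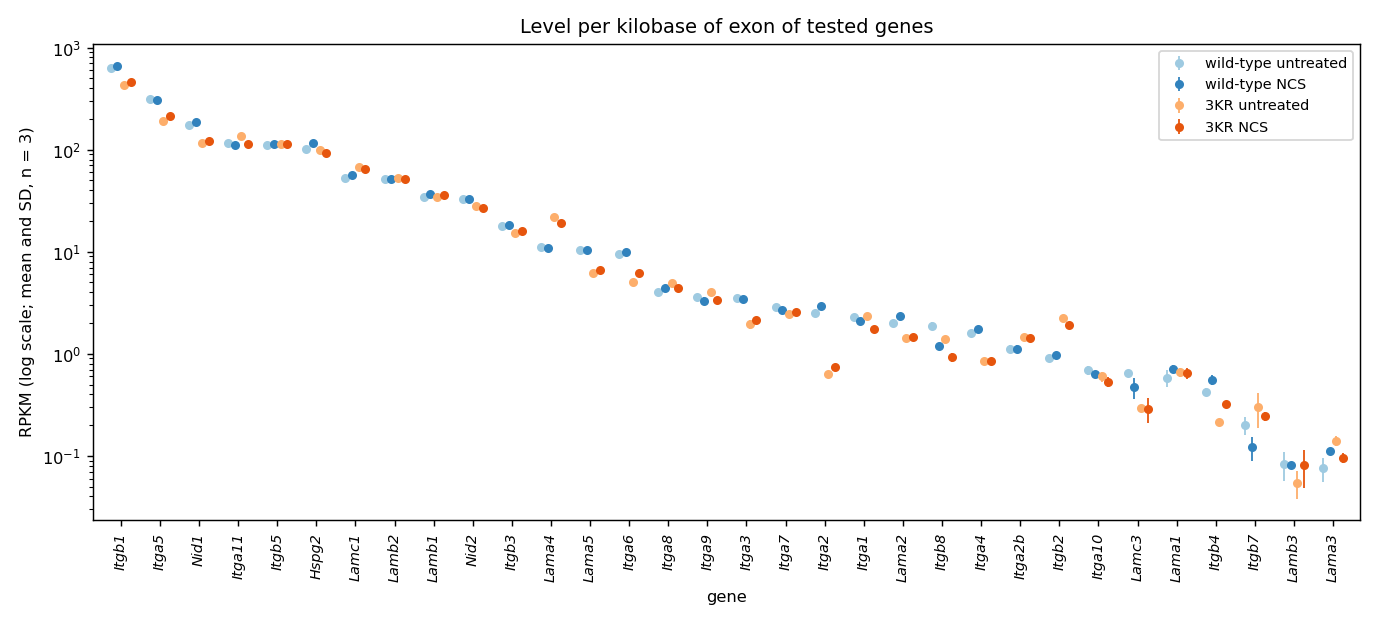
Level of tested genes in RPKM on a log axis, as the mean with SD of 3 samples in each of the 4 groups, ordered by the untreated wild-type mean. Itgb1 and Itga5 lead, with 631 and 315 RPKM in untreated wild-type MEFs, and Lama3 and Lamb3 lie under 1 RPKM in every group.

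Lama4 (chr10:38965515-39110188, plus strand, GRCm38), a chain of the laminins of vessels and mesenchymal cells, was the most abundant alpha chain per kilobase in 3KR MEFs. In wild-type MEFs its RPKM values over all exons and those of Lama5 overlapped. With the longest transcript as length, Lama4 led there too. It had 22.1 ± 0.894 against 10.5 ± 0.375 RPKM untreated and 21.7 ± 0.664 against 10.5 ± 0.106 after NCS (SD, n = 3). It had 4860, 4958 and 5331 normalized counts in untreated wild-type MEFs and 9688, 9792 and 9985 in untreated 3KR MEFs. After NCS the wild-type samples had 5211, 5248 and 4941 and the 3KR samples 8935, 8712 and 8767. Every 3KR sample was above every wild-type sample in both treatments. On the log2 scale, 3KR differed from wild-type by 0.95 untreated (SE 0.04, FDR 2.84e-16) and 0.78 after NCS (SE 0.04, FDR 1.78e-14), where FDR is the Benjamini-Hochberg adjusted p of edgeR's quasi-likelihood test over all genes tested.

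Lama5 (chr2:180176373-180225859, minus strand), the alpha chain of most mature basement membranes, went the other way. Its normalized counts were 4312, 4615 and 4635 in untreated wild-type MEFs and 2636, 2693 and 2620 in untreated 3KR MEFs, and 4634, 4743 and 4694 against 2893, 2862 and 2981 after NCS. All 3KR samples lay below all wild-type samples, with a log2 fold change of -0.78 untreated (SE 0.04, FDR 8.29e-15) and -0.69 after NCS (SE 0.04, FDR 9.65e-14). Lama2, the chain of muscle and peripheral nerve, was lower as well, at -0.51 (SE 0.05, FDR 4.01e-08) and -0.70 (SE 0.05, FDR 1.69e-10). Lama3, a chain of the laminin that anchors epidermis, was scarce, with 23.8 to 39.6 normalized counts in untreated wild-type MEFs, and higher in untreated 3KR MEFs (log2 fold change 0.87, SE 0.22, FDR 0.00228) but not called after NCS (-0.24, SE 0.22, FDR 0.4). Lama1, typical of early embryonic basement membranes, was not called in either (0.16 with FDR 0.325 and -0.16 with FDR 0.315).

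As a share of alpha chain RNA per kilobase, Lama4 was 45.6% ± 0.433 in untreated wild-type and 72% ± 0.36 in untreated 3KR MEFs (SD, n = 3), and Lama5 was 43.3% ± 1.12 and 20.6% ± 0.408. After NCS the Lama4 share was 44.3% ± 0.91 and 68.2% ± 0.519. Lama2 made up 8.32% ± 0.377 and 4.76% ± 0.11 untreated. These differences between the genotypes were larger than the spread between samples. The share depends on the exon length used, because the union of Lama4 exons (12068 bases) is longer than its longest transcript (6046 bases): with the longest transcript Lama4 was 60.2% and 82.1% of untreated wild-type and 3KR alpha chain RNA. No protein was measured.

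**Figure D2:**
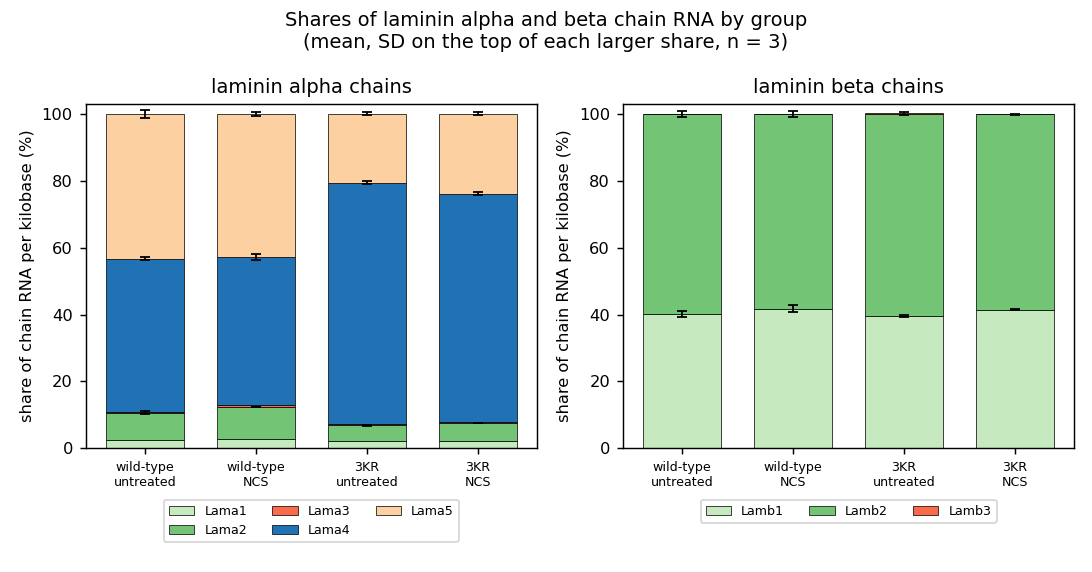
Shares of laminin alpha and beta chain RNA per kilobase of exon (%), as stacked means of 3 samples in each of the 4 groups, with the SD drawn at the top of the larger shares. The Lama4 part grows from 45.6% to 72% between untreated wild-type and 3KR MEFs, while the beta parts stay within a few percentage points.

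The beta chains did not pass the test in either genotype contrast. Lamb1 had 12307, 12569 and 13682 normalized counts in untreated wild-type and 12667, 12940 and 12847 in untreated 3KR MEFs (log2 fold change -0.01, SE 0.03, FDR 0.85), and after NCS it was at -0.04 (SE 0.03, FDR 0.355). Lamb2 had 11526, 11695 and 12028 against 12093, 12123 and 11899 untreated (0.03, SE 0.03, FDR 0.489), with -0.02 after NCS (SE 0.03, FDR 0.617). The groups overlapped for both genes in the untreated samples. Without the wild-type samples numbered 3 both Lamb2 contrasts passed, at 0.05 (FDR 0.0237) and -0.05 (FDR 0.049). Lamb3, the partner of Lama3, had 10.4 to 28.2 normalized counts in untreated samples, and its contrast was -0.62 (SE 0.37, FDR 0.187). Which of Lamb1 and Lamb2 leads depends on length: Lamb2 was 59.8% ± 0.824 of untreated wild-type beta chain RNA over all exons, whereas Lamb1 was 51.5% with the longest transcript.

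Among the gamma chains, Lamc1 (chr1:153218922-153332786, minus strand), the chain to which nidogen binds, made up 96.5% to 98.1% of the group means of gamma chain RNA per kilobase. It had 16144, 16238 and 17100 normalized counts in untreated wild-type and 20816, 21118 and 20962 in untreated 3KR MEFs, without overlap (log2 fold change 0.34, SE 0.03, FDR 7.56e-10). After NCS, 17760, 18094 and 18653 stood against 20467, 20669 and 20746 (0.18, SE 0.03, FDR 1.28e-05). Lamc3 had 137.5, 158.3 and 152.1 in untreated wild-type and 64.5, 66.56 and 70.01 in untreated 3KR MEFs, and 94.3, 100.5 and 140.3 against 60.76, 54.84 and 88.92 after NCS. Its groups did not overlap in either treatment, with log2 fold changes of -1.15 (SE 0.17, FDR 6.45e-06) and -0.70 (SE 0.18, FDR 0.00268), and its exons overlap an antisense gene over 6.27% of their length.

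Nid1, which ties laminin to collagen IV, had 44187, 43582 and 47812 normalized counts in untreated wild-type and 30183, 30246 and 29894 in untreated 3KR MEFs. After NCS it had 50182, 50736 and 51029 against 32581, 32748 and 32159. All 3KR samples were below all wild-type samples (log2 fold change -0.59, SE 0.03, FDR 3.49e-14 untreated and -0.64, SE 0.03, FDR 9.92e-15 after NCS). Its homologue Nid2 was lower by less, at -0.22 (SE 0.03, FDR 3.66e-06) and -0.30 (SE 0.03, FDR 4.18e-08), and 8.45% of its exon length overlaps Rtraf on the other strand. Hspg2, the perlecan gene, was level in untreated cells (-0.05, SE 0.04, FDR 0.288) and lower in 3KR MEFs after NCS (-0.34, SE 0.04, FDR 8.43e-08).

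The alpha subunits that bind collagen moved apart. Itga2 (chr13:114833081-114932100, minus strand) showed the largest contrast of the 33 genes: 720.8, 664.5 and 659.3 normalized counts in untreated wild-type against 154.2, 178.9 and 174.6 in untreated 3KR MEFs, and 830.3, 762.4 and 862.7 against 208.6, 199.5 and 207.8 after NCS. The 3KR level was 4.05-fold lower untreated (log2 fold change -2.02, SE 0.08, FDR 5.09e-16) and 3.98-fold lower after NCS (-1.99, SE 0.08, FDR 4.31e-16). Itga1, whose gene lies 21 kb away (chr13:114953096-115101964, minus strand) and whose upstream stretch is printed above beside that of Itga2, had 1601, 1549 and 1676 in untreated wild-type and 1635, 1612 and 1648 in untreated 3KR MEFs. These overlapped (0.02, SE 0.05, FDR 0.823), whereas after NCS 1533, 1433 and 1611 stood against 1267, 1293 and 1224 (-0.27, SE 0.05, FDR 5.99e-05). Itga11, a collagen receptor subunit of fibroblasts, was higher in untreated 3KR MEFs (0.21, SE 0.02, FDR 2.91e-07) and level after NCS (0.01, SE 0.02, FDR 0.788). Itga10, a cartilage collagen receptor, was not called. Its gene model shares 33.5% of its exon length with another model on the same strand, which is not among the genes counted.

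The 3 alpha subunits grouped here as mainly laminin-binding were all lower in untreated 3KR MEFs. Itga6, which pairs with beta 1 or beta 4, had a log2 fold change of -0.92 (SE 0.04, FDR 1.49e-14) untreated and -0.71 (SE 0.04, FDR 1.72e-12) after NCS. Itga3, a receptor for the laminins that hold Lama5 or Lama3, was at -0.87 (SE 0.07, FDR 4.88e-10) and -0.71 (SE 0.07, FDR 1.54e-08). Itga7, the muscle laminin receptor, was at -0.22 (SE 0.06, FDR 0.00297) and was not called after NCS (-0.08, SE 0.06, FDR 0.285). Itgb4, which joins Itga6 in hemidesmosomes, was scarce, at 99.4 to 119 normalized counts in untreated wild-type and 53.4 to 60.9 in untreated 3KR MEFs, and lower in both treatments (-0.98, SE 0.15, FDR 1.02e-05 and -0.81, SE 0.14, FDR 4.17e-05).

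The fibronectin receptor pair was lower together. Itga5 (chr15:103344286-103366763, minus strand) had 57936, 58801 and 59003 normalized counts in untreated wild-type and 34885, 35441 and 34851 in untreated 3KR MEFs, and 57524, 58685 and 62675 against 40337, 41783 and 40371 after NCS. Its log2 fold change was -0.75 (SE 0.03, FDR 1.34e-16) and -0.55 (SE 0.03, FDR 6.12e-14). Itgb1 (chr8:128685654-128733200, plus strand), the beta subunit shared by the collagen, laminin and fibronectin receptors, had 95323, 96304 and 100000 against 66627, 65679 and 66524 untreated, and 104320, 104075 and 105902 against 72398, 71440 and 72607 after NCS. Neither gene's groups overlapped, and for Itgb1 the log2 fold change was -0.56 (SE 0.02, FDR 5.23e-16) and -0.54 (SE 0.02, FDR 1.34e-15).

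Other alpha subunits went in both directions. Itga4, which binds fibronectin and the adhesion molecule VCAM1, had 802.8, 835.9 and 894.2 normalized counts in untreated wild-type and 429.3, 434.7 and 468.3 in untreated 3KR MEFs, and 982, 947.8 and 932.4 against 429.4, 500.5 and 453.9 after NCS. The 3KR samples were lowest throughout (log2 fold change -0.93, SE 0.07, FDR 3.16e-11 and -1.05, SE 0.07, FDR 3.78e-12), and 8.04% of its exon length overlaps Cerkl on the other strand. Itga8, the nephronectin receptor subunit, was higher in untreated 3KR MEFs (0.27, SE 0.05, FDR 2.88e-05) and level after NCS (-0.03, SE 0.05, FDR 0.636). Itga2b, the platelet fibrinogen receptor subunit, was higher in both (0.38, SE 0.09, FDR 0.0016 and 0.32, SE 0.09, FDR 0.00704). Itga9, which binds tenascin, was at 0.15 untreated (SE 0.06, FDR 0.0586) and was called in 6 of 13 alternatives, among them the one without the wild-type samples numbered 3 (0.17, FDR 0.014).

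Of the remaining beta subunits, Itgb2, the leukocyte subunit, was higher in 3KR MEFs: 109.4, 96.38 and 109.7 normalized counts in untreated wild-type against 250.9, 252.7 and 258.2 in untreated 3KR MEFs, and 125.1, 107.9 and 115.4 against 244.1, 207.7 and 220.2 after NCS. The groups did not overlap, and the log2 fold change was 1.26 (SE 0.11, FDR 1.16e-09) and 0.95 (SE 0.11, FDR 1.72e-07). Itgb7, the lymphocyte partner of Itga4, had only 10 to 49 counts per sample and was called after NCS (0.99, SE 0.35, FDR 0.0228), with an FDR of 0.0144 to 0.0841 over the alternatives. Itgb3, a partner of alpha v, was lower at -0.25 (SE 0.04, FDR 2.1e-05) and -0.20 (SE 0.04, FDR 0.00021), and Itgb8, which pairs with alpha v and releases active TGF-beta, was lower at -0.46 (SE 0.07, FDR 1.68e-05) and -0.38 (SE 0.08, FDR 0.000494). Itgb5 had 14346 to 16166 normalized counts in untreated wild-type and 15048 to 15060 in untreated 3KR MEFs and was not called (FDR 0.986 untreated and 0.657 after NCS). Without the wild-type samples numbered 3 its untreated contrast was 0.06 and was called (FDR 0.00372).

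**Figure D3:**
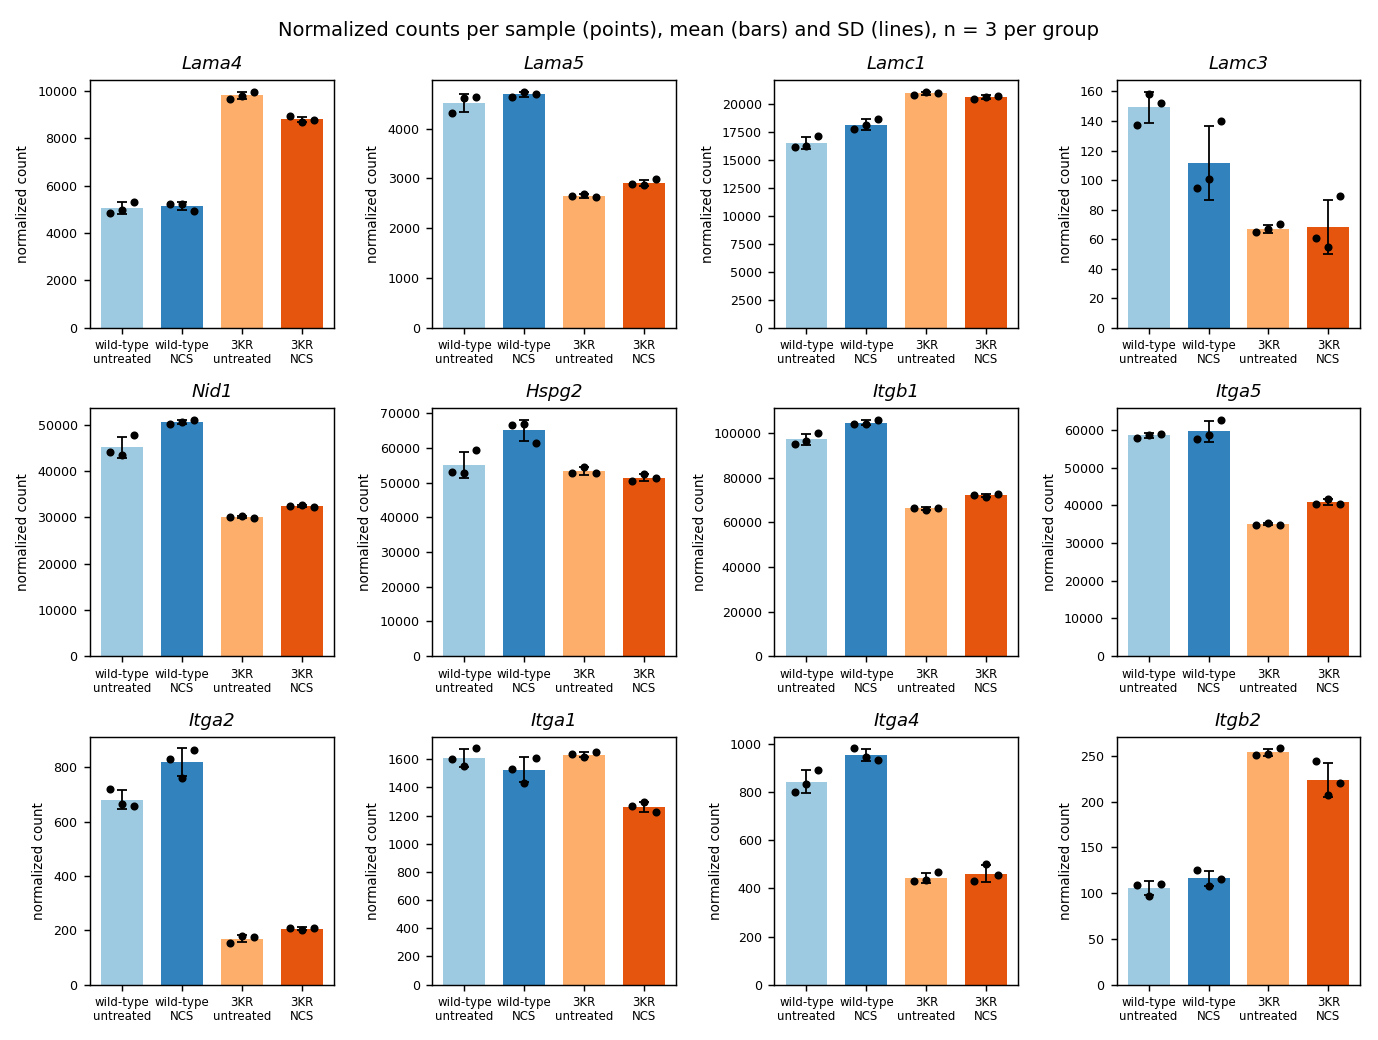
Normalized counts of 12 genes in each sample (points), with group means (bars from 0) and SDs (lines), n = 3. In both treatments, 3KR samples lie above wild-type samples for Lama4, Lamc1 and Itgb2 and below them for Lama5, Lamc3, Nid1, Itgb1, Itga5, Itga2 and Itga4; Hspg2 and Itga1 separate only after NCS.

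In all, 7 of the 33 genes were higher and 16 lower in untreated 3KR MEFs, with 10 not called. Over all genes tested in that contrast, 45.7% were called, 22.1% as higher and 23.6% as lower. The median log2 fold change was -0.22 over the 33 genes and -0.00 over all genes tested. After NCS 5 were higher and 16 lower, where 46.5% of all genes were called, 22.9% as higher and 23.6% as lower, and the medians were -0.24 and 0.00. By class, 4 of the 19 tested integrin subunits were higher and 10 lower in untreated 3KR MEFs, and of the 11 laminin chains 3 were higher and 4 lower. Summed over the 35 genes, normalized counts were 368074 ± 11900 in untreated wild-type and 303535 ± 1140 in untreated 3KR MEFs (SD, n = 3). This sum follows the most counted genes and says little about the other members. Untreated wild-type and 3KR means were 97209 and 66277 for Itgb1, 58580 and 35059 for Itga5, and 45194 and 30108 for Nid1. For Hspg2 they were 55022 and 53325.

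**Figure D4:**
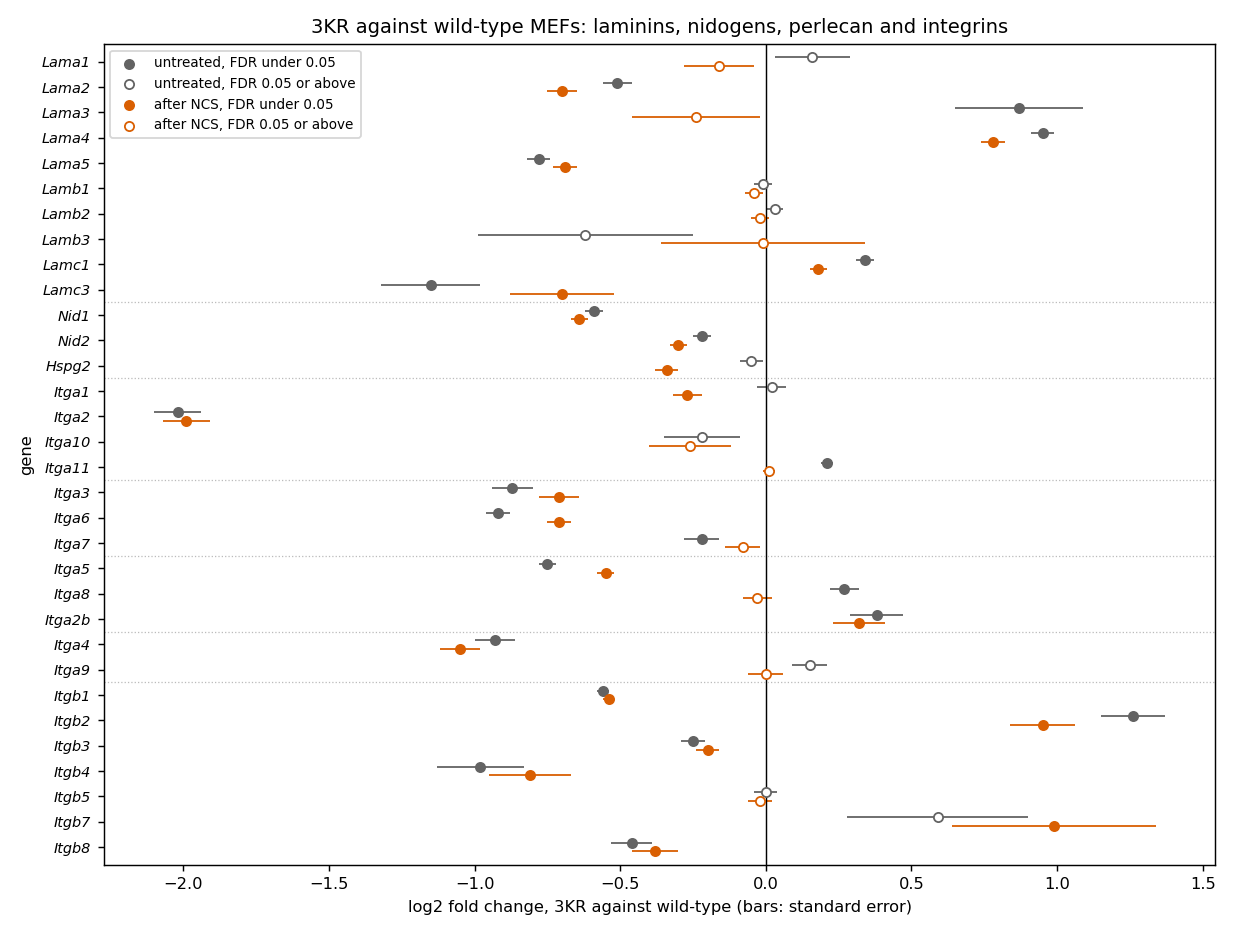
Genotype contrast (3KR over wild-type, log2 fold change with its standard error) of tested genes, untreated (grey) and after NCS (orange), with filled points at FDR under 0.05 and dotted lines between classes. Itga2 lies farthest to the left (-2.02 and -1.99) and Itgb2 farthest to the right untreated (1.26).

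After NCS for 3 h fewer of these genes passed than between the genotypes. In wild-type MEFs 12 of the 33 were higher after NCS and 1 was lower, where 26.7% of all genes were called, 14.3% as higher and 12.4% as lower. The median log2 fold change was 0.07 over the 33 genes and 0.01 over all genes. The gene that fell was Itgb8, with 756.4, 863.3 and 738.9 normalized counts untreated and 502.3, 501.5 and 535.4 after NCS (-0.62, SE 0.08, FDR 1.14e-06). Among the matrix genes, log2 fold changes were 0.26 for Lama2 (SE 0.05, FDR 0.000581) and 0.24 for Hspg2 (SE 0.04, FDR 4.05e-05). Chains of most tissues and their linker rose slightly, by 0.16 for Nid1 (SE 0.03, FDR 0.000181), 0.15 for Lamb1 (SE 0.03, FDR 0.00194) and 0.14 for Lamc1 (SE 0.03, FDR 0.000982).

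Among the integrins of wild-type MEFs, the laminin receptor subunits Itgb4 and Itga6 were at 0.45 (SE 0.13, FDR 0.0129) and 0.12 (SE 0.04, FDR 0.0363). The collagen receptor subunit Itga2 was at 0.26 (SE 0.06, FDR 0.0044), Itga4 and Itga8 each at 0.17 (SE 0.06, FDR 0.0352 and SE 0.05, FDR 0.00574), and the shared subunit Itgb1 at 0.10 (SE 0.02, FDR 0.000919). Without the wild-type samples numbered 3, Itga2 (0.19, FDR 0.0532), Itgb4 (0.41, FDR 0.0633) and Itga6 (0.07, FDR 0.115) were no longer called, and Itgb5 (0.11, FDR 2.12e-05), Lamb2 (0.09, FDR 0.000641), Lama4 (0.09, FDR 0.00776), Lamc3 (-0.60, FDR 0.00801) and Lama1 (0.35, FDR 0.0371) were. The call of Itga4 was lost in 5 of 13 alternatives (FDR 0.00632 to 0.166), that of Itga6 in 6 (0.00427 to 0.237) and that of Itgb4 in 3 (0.0095 to 0.0731). Samples of the same number varied together in wild-type MEFs, as deviations from group means that hold the samples numbered 3. Whether the other numbers pair apart from those samples was not tested. A fit that took the sample number as a block passed 3 more genes: Lama1 (0.34, FDR 0.0119), Lamc3 (-0.44, FDR 0.0224) and Itgb5 (0.07, FDR 0.0113).

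In 3KR MEFs 10 of the 33 were higher and 6 lower after NCS, where 30.8% of all genes were called, 15.8% as higher and 15% as lower, with medians of 0.03 and -0.00. Itgb8 fell here too, from 618.8, 563.7 and 536.5 to 431.4, 393.2 and 353.6 normalized counts (log2 fold change -0.54, SE 0.08, FDR 1.68e-05). The laminin receptor subunits Itgb4 (0.63, SE 0.16, FDR 0.00411) and Itga6 (0.33, SE 0.04, FDR 4.18e-06) rose. Smaller rises were those of Itga2 (0.28, SE 0.09, FDR 0.0262), Itga5 (0.22, SE 0.03, FDR 1.05e-06), Lama5 (0.14, SE 0.04, FDR 0.00509) and Lamb1 (0.12, SE 0.03, FDR 0.0104). Itgb1 and Itgb3 were both at 0.12 (SE 0.02, FDR 0.00012 and SE 0.04, FDR 0.0328), and Nid1 was at 0.11 (SE 0.03, FDR 0.00473). Of 13 alternatives, the call of Itgb3 was lost in 5 (FDR up to 0.129), that of Itga2 in 4 (up to 0.127) and that of Lamb1 in 2 (up to 0.0548). Without the wild-type samples numbered 3, Itgb5 (0.05, FDR 0.0144) and Hspg2 (-0.05, FDR 0.000816) were called as well.

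The alpha subunits that fell in 3KR MEFs were the collagen receptor subunits Itga1 (-0.37, SE 0.05, FDR 2.42e-06) and Itga11 (-0.21, SE 0.02, FDR 9.03e-07), together with Itga9 (-0.21, SE 0.06, FDR 0.0129) and Itga8 (-0.12, SE 0.05, FDR 0.0391). The call of Itga8 was lost in 8 of 13 alternatives (FDR 0.0127 to 0.119) and that of Itga9 in 3 (0.000214 to 0.0628). The laminin chain Lama4 fell as well (-0.16, SE 0.04, FDR 0.00169). Both NCS contrasts of Itga2, Itga6, Itgb1, Itgb4, Itgb8, Lamb1 and Nid1 passed with the same sign.

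The difference between the genotypes in the NCS response was tested directly as an interaction, and 7 of the 33 genes passed, 1 higher and 6 lower in 3KR MEFs, where 3.73% of all genes were called, 1.86% as higher and 1.87% as lower. The widest difference was that of Lama3, with 29, 39.56 and 23.8 normalized counts in untreated wild-type and 44.08, 48.86 and 47.76 after NCS, against 54.42, 64.48 and 50.92 and then 43.54, 35 and 40.32 in 3KR MEFs. The groups did not overlap in either genotype, the responses were 0.61 (FDR 0.0504) and -0.50 (FDR 0.0817), neither of them called, and the call of the difference of -1.11 (SE 0.31, FDR 0.0478) was lost in 12 of the 17 alternatives that gave an FDR (0.0281 to 0.13), among them those that left out any 1 sample other than untreated wild-type replicate 2, and that without the wild-type samples numbered 3 (-0.96, FDR 0.0898). Hspg2 had 52954, 52774 and 59338 normalized counts in untreated wild-type and 66617, 66876 and 61536 after NCS, and 52629, 54530 and 52815 and then 50560, 52377 and 51428 in 3KR MEFs. It thus rose in wild-type MEFs (0.24) and not in 3KR MEFs (-0.05, FDR 0.349), a difference of -0.29 (SE 0.05, FDR 0.0021) that was called in all 18 alternatives. Its 3KR response was called without the wild-type samples numbered 3, as given above.

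Lamc1 was at 0.14 in wild-type and -0.02 in 3KR MEFs (FDR 0.621), a difference of -0.16 (SE 0.04, FDR 0.0295) whose call was lost in 9 of 18 alternatives (FDR up to 0.0883). Itga8 was at 0.17 in wild-type and -0.12 in 3KR MEFs, the latter called in only 5 of 13 alternatives, and the difference of -0.30 (SE 0.06, FDR 0.00818) was called in all 18. The collagen receptor subunits Itga1 (-0.08, FDR 0.23, and -0.37, difference -0.29, SE 0.07, FDR 0.0152) and Itga11 (-0.01, FDR 0.848, and -0.21, difference -0.20, SE 0.04, FDR 0.00153) fell in 3KR MEFs and were not called in wild-type MEFs, and the difference of Itga1 was lost in 1 of 18 alternatives (FDR 0.0565). Itga5 went the other way, with 0.02 in wild-type (FDR 0.623) and 0.22 in 3KR MEFs, a difference of 0.20 (SE 0.04, FDR 0.00305). Lama4 (-0.18, FDR 0.0574) and Itga6 (0.21, FDR 0.0561) missed the threshold. Under the replicate block they passed (FDR 0.0069 and 0.00376), as they did without the wild-type samples numbered 3, where 12 of the 33 genes passed and 11.8% of all genes were called. Those that passed there in addition were Nid1 (-0.09, FDR 0.00216), Lama2 (-0.26, FDR 0.00962), Lamb2 (-0.10, FDR 0.0114) and Itgb3 (0.13, FDR 0.0341).

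**Figure D5:**
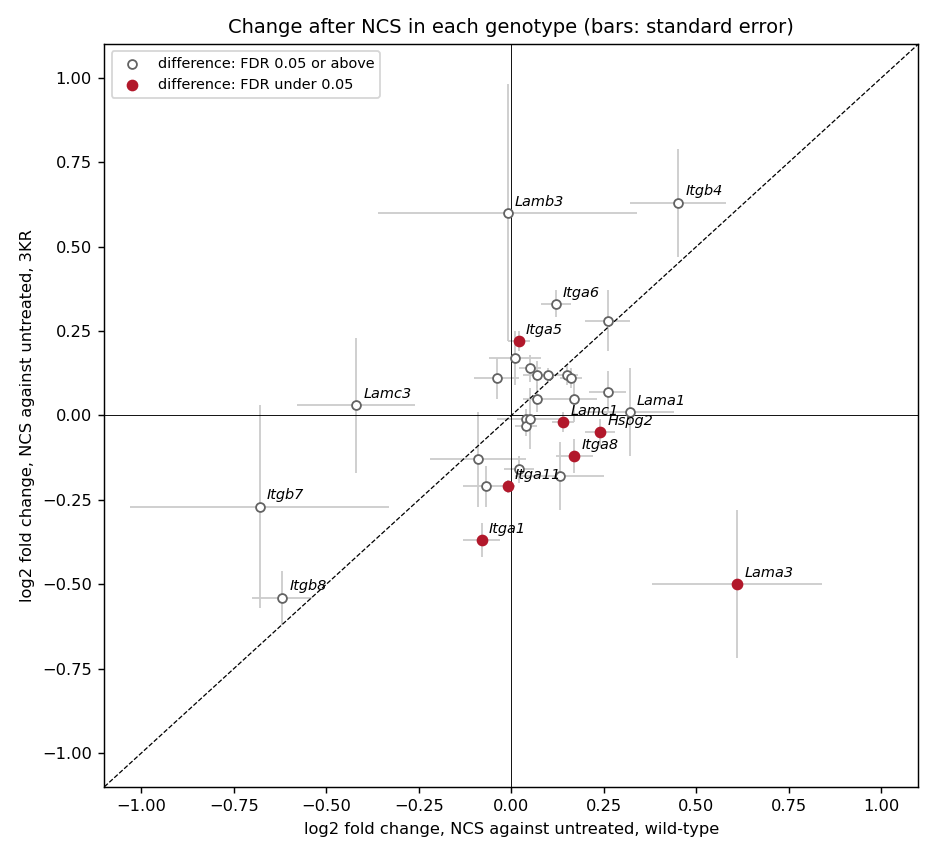
Log2 fold change after NCS in wild-type (horizontal axis) and 3KR MEFs (vertical axis) with standard errors for tested genes; filled points passed the test of the difference and the dashed line marks equal responses. Lama3 lies farthest from the line (0.61 and -0.50), and Itgb8 and Itgb4 moved the same way in both genotypes.

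Integrin alpha subunits whose symbols carry a letter in place of a number lie outside the rule. Of 6, 5 were tested, and in untreated 3KR MEFs Itgal and Itgam, the partners of Itgb2 in leukocytes, were higher (1.45, SE 0.16, FDR 1.02e-07 and 1.34, SE 0.10, FDR 5.79e-11) while Itgav was slightly lower (-0.11, SE 0.03, FDR 0.00485). Itgav had 14674 to 16760 normalized counts in untreated samples. After NCS the same 3 were called in the genotype contrast, 2 higher and 1 lower. The genotype contrasts called 45.7% of all genes untreated and 46.5% after NCS.

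Against 45.7% of all genes called between the untreated genotypes and 46.5% after NCS, further lists were counted. Of 18 laminin partners and integrin ligands, 4 were higher and 11 lower in untreated 3KR MEFs, and 4 and 11 after NCS. By lowest FDR these were led by Smoc1, a matricellular protein (-1.71, SE 0.03, FDR 9.92e-22), Frem1, a protein beneath embryonic epithelium (3.10, SE 0.09, FDR 5.89e-19), Col18a1, a collagen of basement membranes (-0.99, SE 0.03, FDR 1.32e-18), and Tnc, the tenascin ligand of Itga9 (0.63, SE 0.02, FDR 1.4e-17). After NCS 8 of the 18 were higher and 2 lower in wild-type MEFs, where 26.7% of all genes were called. In 3KR MEFs 6 were higher and 4 lower, where 30.8% of all genes were called. The difference was called for Npnt (0.39, SE 0.07, FDR 0.00242) and Fn1 (-0.14, SE 0.03, FDR 0.0117), and for 3.73% of all genes.

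Of 20 integrin adaptors, 19 were tested, with 3 higher and 11 lower in untreated 3KR MEFs and 3 and 10 after NCS. The shares called over all genes were 45.7% and 46.5%. The lowest FDRs were those of Parvb, which binds integrin-linked kinase (-1.32, SE 0.05, FDR 5.92e-17), Fermt2, a kindlin that activates integrins (-0.55, SE 0.03, FDR 2.55e-13), Vcl, vinculin (-0.46, SE 0.03, FDR 2.04e-12), and Tln2, a talin (0.56, SE 0.04, FDR 2.1e-10). After NCS 3 adaptors were higher and 3 lower in wild-type MEFs, near the 26.7% of all genes called. In 3KR MEFs 8 were higher and 2 lower, where 30.8% of all genes were called. The difference was called for Parvb (0.37, SE 0.06, FDR 0.00103), Zyx (0.23, SE 0.05, FDR 0.0133) and Fermt2 (0.17, SE 0.04, FDR 0.0212), and for 3.73% of all genes.

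Markers of other cell types differed between the genotypes too, and their part in the results above was not tested. Over all genes tested, 45.7% were called between the untreated genotypes and 46.5% after NCS. The 13 macrophage markers, beside which stand Itgb2, Itgam and Itgal, summed to 9325 to 9502 normalized counts in untreated 3KR against 4761 to 5477 in untreated wild-type MEFs, and 13 of 13 passed as higher. Of 11 Schwann cell and neural crest markers, 8 were lower, with sums of 2181 to 2286 against 9656 to 9823, beside Itga4, Itga6, Itgb4, Itgb8 and Lama2. Of 10 endothelial markers 7 were tested, 2 higher and 2 lower, with sums of 7800 to 8061 against 4050 to 4234. The median log2 fold change of those tested was 0.15. Beside them stand Lama4, which was higher (0.95), and Lama5, which was lower (-0.78). The defining markers Cldn5 and Tie1 had at most 3 counts in every sample. Of 9 epithelial markers 4 were tested, 2 higher and 2 lower, with sums of 330 to 380 against 532 to 554, beside Lama3, Lamb3 and Itgb4, and Krt5, Esrp1 and Grhl2 had at most 3 counts in every sample. Of 8 skeletal muscle markers 4 were tested and 3 were lower, with sums of 1618 to 1725 against 4667 to 4884, beside Lama2 and Itga7.

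The smooth muscle and pericyte sum was 231107 to 231469 in untreated 3KR against 282445 to 294644 in untreated wild-type MEFs, with 5 of 6 markers lower and 1 higher. For chondrocyte markers, of which 4 of 5 were tested, 2 higher and 1 lower, it was 15734 to 16383 against 25387 to 25416. Marker sums follow the most counted genes of a list and say little about its other genes. The chondrocyte and epithelial sums were lower, although the median log2 fold changes of the tested markers were 0.29 and 0.86. Of 5 megakaryocyte markers 3 were tested, 2 higher and 1 lower, with sums of 187 to 235 against 113 to 136. Beside them stand Itga2b, which was higher (0.38), and Itgb3 (-0.25) and Itga2 (-2.02), which were lower. Gp9 and Gp6 had at most 3 counts in every sample. The fibroblast markers, by which the labelled cell type was checked, summed to 1898617 to 1967389 in untreated 3KR and 1621156 to 1672039 in untreated wild-type MEFs, with 8 of 9 higher and 1 lower in the 3KR samples. After NCS the sums were 8575 to 8822 in 3KR against 5265 to 5933 in wild-type MEFs for macrophage markers, of which 11 were higher and 0 lower. For Schwann cell and neural crest markers they were 2004 to 2017 against 9373 to 9777, with 1 higher and 8 lower.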

How the data were processed

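RNA from 12 samples of primary MEFs (3 per group) was sequenced from stranded messenger RNA libraries. Per the submitters' processing notes, the authors used TopHat, HTSeq and DESeq with build mm9; versions and the strand setting of the counting are not given in the sources used here, so reads of overlapping antisense genes cannot be told apart. The deposited values are raw counts per Ensembl gene, and depth was 33203757 to 45279321 counted reads.

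Genes passing edgeR's expression filter (15327 of 37991) were fitted with edgeR 4.0.16 in R 4.3.3 (TMM scaling, quasi-likelihood F test, all 12 samples, 1 coefficient per group), with an FDR threshold of 0.05 over all genes tested. DESeq2 1.42.0 size factors gave normalized counts. RPKM used exon lengths of GENCODE M21 (GRCm38), whose positions are printed; 32919 identifiers matched. Promoters came from RefSeq. On simulated counts for the untreated genotype contrast (15098 genes), 80.2% of 192 changed genes were recovered and 3.14% of calls were false. The simulation changed far fewer genes than were called in the data and had no sample that stood apart. These rates therefore need not hold for the data.

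Members and lists were chosen with earlier results of these data known. Of the members, 1 is counted in the totals but not reported here, and all others are named; statistics were given for those passing the FDR threshold, every sample's value for those with an absolute log2 fold change of at least 1 and for the most abundant subunits, and up to 4 genes per related list by lowest FDR. Same-numbered wild-type samples deviated together over 9649 genes (correlations 0.263, 0.227 and 0.465), from which the pairing was taken. In 3KR samples the correlations were 0.0134, 0.0359 and 0.0126. Samples numbered 3, which stood apart in both wild-type treatments, are part of the means from which deviations were taken. The wild-type correlations therefore do not show pairing of the other numbers by themselves. Alternatives were other scalings, filters, tools and sample sets, a replicate block, exon lengths and leaving out samples. Counting intervals cover counting error only.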

Additional observations from a re-analysis of the deposited data

Results flagged for a closer look

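The response to NCS differed between the genotypes, by edgeR's interaction test across all genes, for 7 of the 33 tested genes, where 3.73% of all genes were called. In log2 units, as the 3KR response minus the wild-type response, the difference was -1.11 for Lama3, -0.30 for Itga8, -0.29 for Hspg2, -0.29 for Itga1, -0.20 for Itga11, -0.16 for Lamc1 and 0.20 for Itga5. The call of Lama3 was lost in 12 of 17 alternatives, that of Lamc1 in 9 of 18 and that of Itga1 in 1 of 18. No rule for single distant samples was applied gene by gene to groups of 3. Over all genes the wild-type samples numbered 3 stood apart, and the call of Lama3 was lost without them (edgeR FDR 0.0898).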

How the results depend on the processing

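Of 80 calls of single genes, 66 held under every alternative run and 14 were lost under at least 1, and of 28 printed values that were not called, 11 were called under at least 1. Members called for the difference in the NCS response numbered 7, 4 to 10 when 1 sample was left out (lowest without 3KR NCS replicate 3, highest without untreated wild-type replicate 3) and 12 without the wild-type samples numbered 3, a choice made after seeing the data. Genes called for it numbered 572, 345 to 1159 when 1 sample was left out, 1842 without the wild-type samples numbered 3, and 1379 with the replicate block. The replicate block also raised genes called for NCS in wild-type MEFs from 4090 to 5239 and brought Itga9 past the threshold in the untreated genotype contrast (0.15, FDR 0.0406); it changed no call of a member other than those given. In 3KR MEFs and between genotypes samples share only a number. Values near 0 changed sign: Hspg2, untreated contrast, -0.08 to 0.01 when 1 sample was left out, with 0.01 without untreated wild-type replicate 3 or without both wild-type samples numbered 3; Itga1, -0.01 (without untreated wild-type replicate 2) to 0.05; Lamb1, 0.00 with no filter and -0.04 to 0.04 when 1 sample was left out, with 0.04 without untreated wild-type replicate 3 or both; Itga5 after NCS in wild-type MEFs, -0.02 without wild-type NCS replicate 3 and -0.01 without both; Itgb5, untreated contrast, 0.00 with DESeq2 size factors, DESeq2's test, only the samples compared or the replicate block, 0.01 with no filter, -0.03 to 0.06 when 1 sample was left out and 0.06 without both; Itgb5 after NCS, -0.04 to 0.01 when 1 sample was left out and 0.01 without both. The causes were not tested. With the longest transcript as length, in the order untreated and NCS wild-type, untreated and NCS 3KR, Lama4 shares were 60.2%, 58.6%, 82.1% and 79.3%, Lamb1 shares 51.5%, 53.3%, 50.9% and 53%, and Lamc1 shares 95.6%, 95.6%, 97.4% and 96.5%. Scaled by library totals, summed member counts were 390225 in wild-type NCS and 311119 in untreated 3KR MEFs. Depth limits Lama3, Lamb3, Itgb7 and the untested Itgb6 and Itgb2l, whose counts were low.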
